A study of Mus musculus with 71 samples.

Results

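The genes of the proteasome and its direct regulators were followed in mouse whole brain after 6 h of sleep deprivation. A probe set was taken as a member when the platform annotation gave it exactly 1 gene symbol and that symbol named a proteasome gene of the Psma, Psmb, Psmc, Psmd, Psme, Psmf or Psmg series, with the immunoproteasome genes Psmb8, Psmb9 and Psmb10 left out. Of 45037 probe sets tested, 99 qualified, for 46 genes. Of these, 3 probe sets of 2 genes, Psmc3ip and Psme3ip1, share the name pattern but encode proteins that are not proteasome subunits, which leaves 96 probe sets of 44 genes. A further probe set with several symbols that include a member's was left out.

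Whole-brain RNA came from male mice of the inbred strains DBA/2J, C57BL/6J and AKR/J, aged 12 to 13 weeks and kept under a light/dark cycle with free access to food and water. Sleep-deprived mice had been kept awake for the 6 h before sacrifice at ZT0 (light onset), ZT6, ZT12 (dark onset) or ZT18, and controls of the same strain and time had stayed in their home cages. Each array held equal amounts of RNA from 3 mice of 1 group, pooled before labelling, so a value is an average over 3 brains. The 71 arrays (35 of sleep-deprived mice and 36 of controls) fell into 24 groups of 3 strains, 2 conditions and 4 times. Sleep-deprived AKR/J mice at ZT18 had 2 arrays and each of the other 23 groups had 3. The design names 9 mice per group, and p-values measure the spread between such pools. No mutation, drug or transgene was part of any group.

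The proteasome breaks down proteins that carry a ubiquitin tag, and in neurons this turnover takes part in the remodelling of synapses. Its core particle, called 20S, is a barrel of outer alpha rings, which gate the entrance, and inner beta rings, which hold the cutting sites. The regulatory particle, called 19S, caps the barrel: a base of ATPases unfolds the substrate and a lid removes the ubiquitin. Dedicated chaperones assemble both particles, and separate proteins such as Psme1, Psme3, Psme4 and Psmf1 bind the ends of the core and alter its activity.

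Values are deposited log2 levels, on which a difference of 0.10 is about 7% (the exact figure is 7.18%). The members ran from 3.38 to 11.4 in mean level, and 74 of the 99 probe sets lay above 5.68, the median of all probe sets. The alpha ring had 18 probe sets of 8 genes and the beta ring 12 of 8. The 19S base had 12 for 6 ATPases and 6 for 3 other subunits, and the lid had 21 for 8 genes. Assembly chaperones had 8 probe sets of 4 genes for the core and 5 of 3 genes for the cap, and activators with the inhibitor had 14 of 4 genes. The dim end included Psma8 at 3.94 and Psmb11 at 4.05, core subunits known from testis and thymus. More than 1 probe set stood for 26 of the 46 genes. Probe sets ending in _s_at (5), _x_at (8) or _a_at (19) can match several transcripts.

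Array medians lay between 5.65 and 5.71 and the lowest correlation between arrays was 0.986. In 6 arrays a set of spike-in control probe sets averaged at most 6.33, against at least 6.79 in the other 65. These were the sleep-deprived C57BL/6J arrays ZT0 replicate 3, ZT6 replicate 1 and ZT6 replicate 3, and the control arrays AKR/J ZT0 replicate 3, AKR/J ZT6 replicate 3 and C57BL/6J ZT0 replicate 3. Neuron markers were among the brightest on the arrays, with Snap25 at a mean of 13.45 in sleep-deprived mice and 13.44 in controls. Because whole brain is a mixture, fewer cells of a type and less RNA per cell cannot be told apart. Among 8 oligodendrocyte markers 4 fell and 1 rose with sleep deprivation by the same test, where 9.00% of all probe sets were lower and 8.31% higher. The mean level of the list was 10.2 to 10.6 in sleep-deprived arrays and 10.3 to 10.8 in controls. The part of these cells in the results below was not tested. Their share was not matched for level, and the lists of most other cell types are not given here. Of 10 neuron markers 2 rose and 1 fell, at mean levels of 11.6 to 11.9 in sleep-deprived arrays and 11.6 to 11.8 in controls. Pituitary hormone genes varied between arrays, with a mean level over 7 genes of 4.94 to 9.23 in sleep-deprived arrays and 4.98 to 9.43 in controls, and none passed the test.

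Sleep deprivation as a whole was measured as the mean of the 12 differences between sleep-deprived mice and controls within strain and time, fitted with limma. Most proteasome genes stayed within a few percent of the controls. A probe set was called when its p, adjusted by Benjamini-Hochberg over all 45037 probe sets, was under 0.05. By that rule 7 member probe sets rose and 7 fell, 14.1% of the 99, against 17.3% of all probe sets (8.31% higher and 9.00% lower). The median difference was -0.0038 over the members and -0.0024 over all probe sets. Counting the brightest probe set of each gene, 4 of 46 genes rose and 4 fell. All 14 calls were among the 74 probe sets above the median level of all probe sets. The share called among all probe sets above that level is not given here, so this split is not read as a trait of the members. The 14.1% and 17.3% were likewise not matched for level. The 95% interval of the difference lay within 0.10 log2 of 0 for 83 of the 99 probe sets, and within 0.15 for 93, which included the brightest probe set of all 46 genes.

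**Figure D1:**
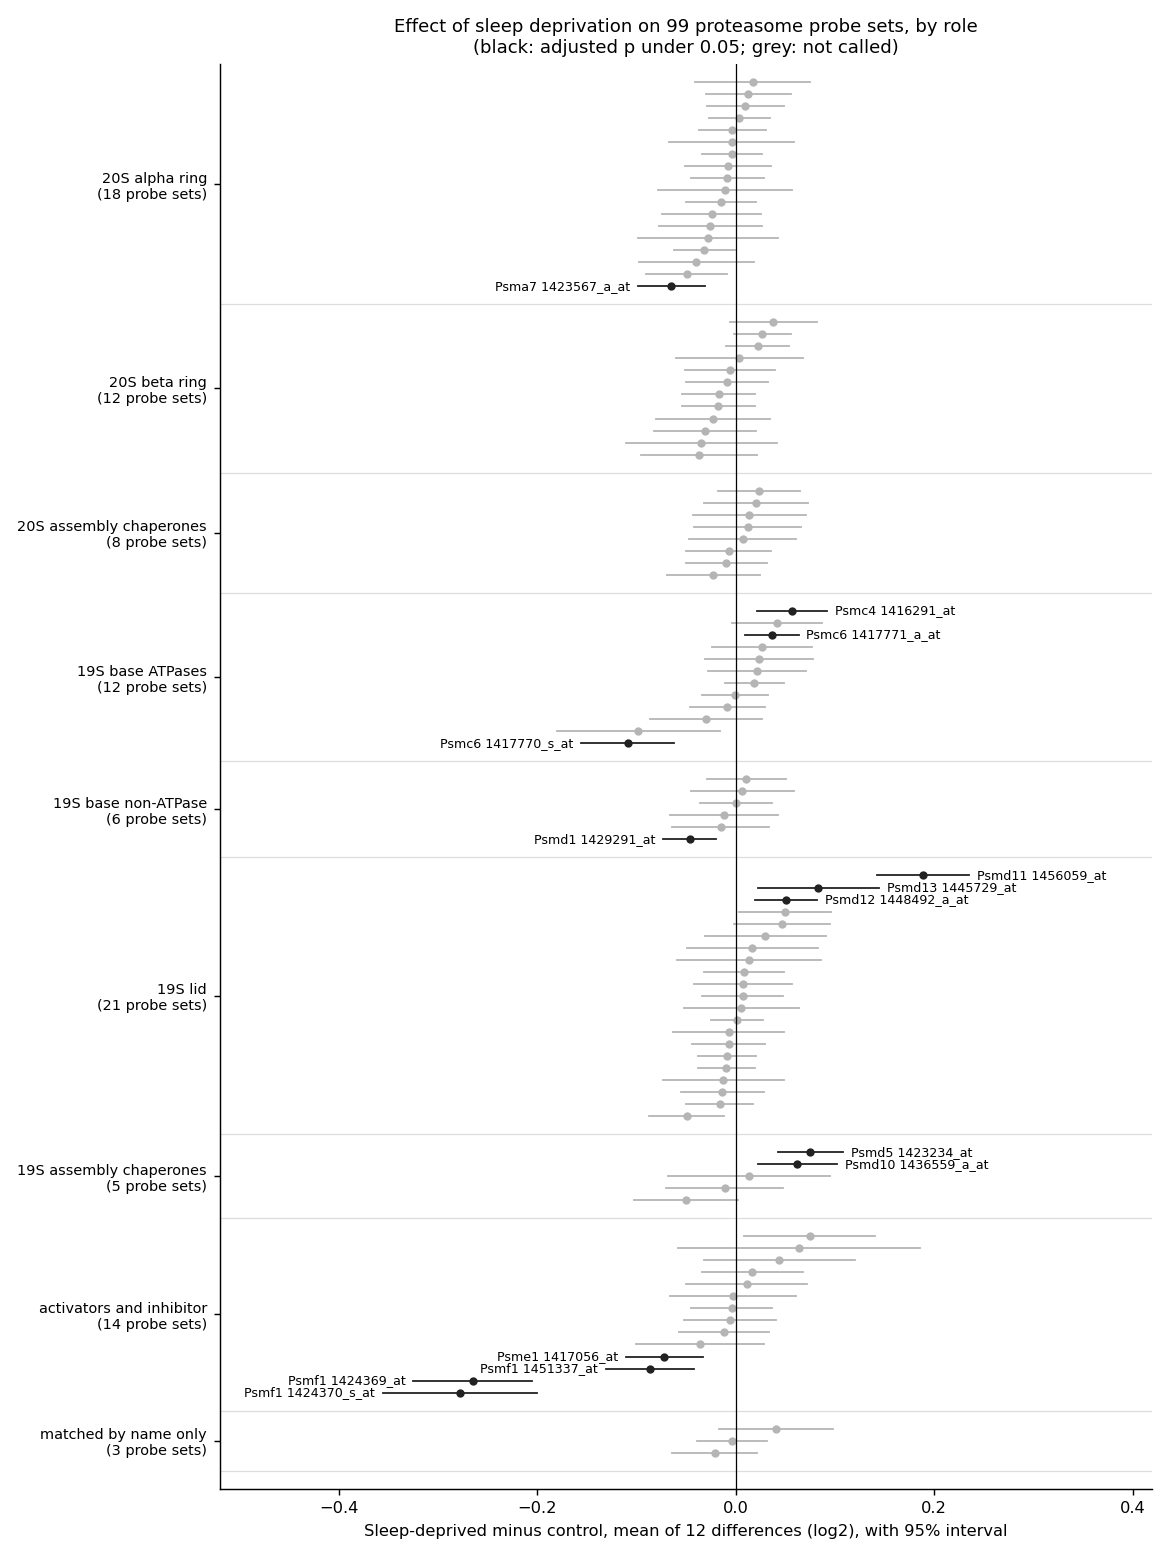
Difference between sleep-deprived mice and controls for each of the 99 probe sets, grouped by role, as the mean of 12 differences within strain and time (log2, horizontal axis). Points are estimates, lines their 95% intervals, and the 14 black, named points passed the test. The furthest to the left are Psmf1 probe sets at -0.28 and -0.27 and the furthest to the right is a Psmd11 probe set at 0.19.

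The largest fall was that of Psmf1, the gene of the proteasome inhibitor protein PI31, which binds the core particle. Probe set 1424369_at ran from 5.82 to 6.40 with a median of 6.13 in the 35 sleep-deprived arrays, and from 5.97 to 6.76 with a median of 6.37 in the 36 control arrays. The groups overlapped, with the sleep-deprived median near the low end of the controls. On the mean it fell by 16.8% on the linear scale, a log2 difference of -0.27 ± 0.03 (SE) (limma, adjusted p = 3.43e-10), with 11 of the 12 differences below 0. In 7 of the 12 strain and time groups every sleep-deprived array lay below every control array.

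A second Psmf1 probe set, 1424370_s_at, ran from 6.32 to 6.92 with a median of 6.68 in sleep-deprived arrays and from 6.38 to 7.49 with a median of 6.94 in controls. It fell by 0.28 ± 0.04 (adjusted p = 1.05e-07), with 10 of 12 differences below 0. The brightest, 1451337_at, ran from 7.84 to 8.21 with a median of 8.08 in sleep-deprived arrays and from 7.86 to 8.35 with a median of 8.18 in controls. Its fall was smaller, at 0.09 ± 0.02 (adjusted p = 0.00312). The dim remaining probe set, 1424371_at, had a difference of -0.04 ± 0.03 (adjusted p = 0.546). Across the 24 group means, 1424369_at and 1424370_s_at followed each other with r = 0.94, and 1451337_at followed 1424369_at with r = 0.74. These are descriptions, since all probe sets were read from the same arrays.

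Psmd11, a lid subunit, showed the largest rise, in 1 of its 8 probe sets. Probe set 1456059_at ran from 9.62 to 10.21 with a median of 9.98 in sleep-deprived arrays, and from 9.37 to 10.12 with a median of 9.77 in controls. All 12 differences were above 0, and in 7 of the 12 groups every sleep-deprived array lay above every control. The mean difference was 0.19 ± 0.02 (adjusted p = 4.11e-09). The brightest Psmd11 probe set, 1437080_s_at, had a difference of -0.02 ± 0.02 (adjusted p = 0.625), and 1440253_at one of -0.05 ± 0.02 (adjusted p = 0.0575). Between group means, 1456059_at followed 1437080_s_at with r = 0.26, while 1429370_a_at followed 1437080_s_at with r = 0.85. The Psmd11 rise thus rests on a single probe set, and which stretch of the gene each probe set reads is not given in the sources used here.

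**Figure D2:**
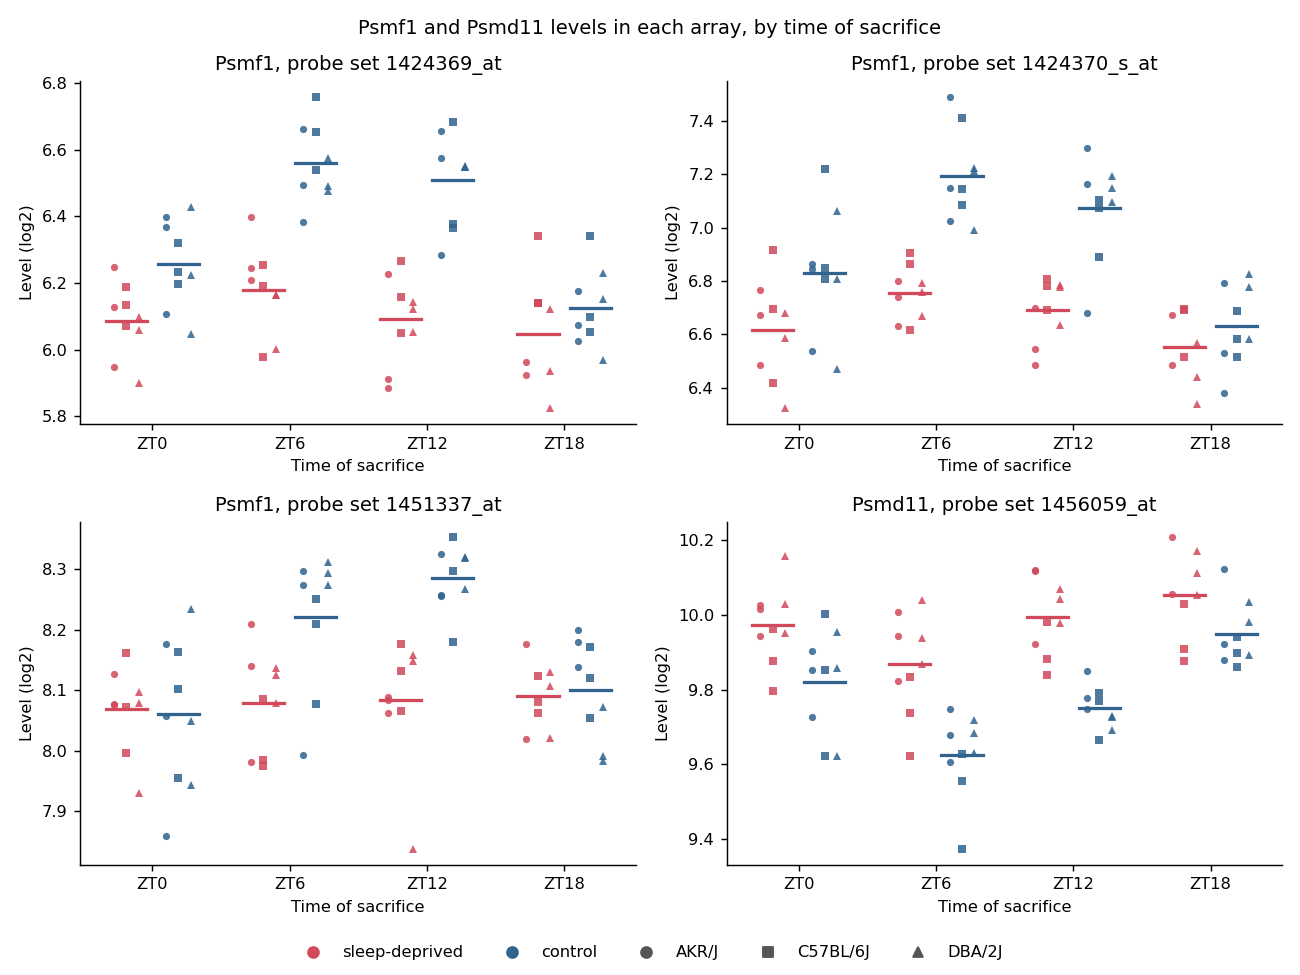
Level of 3 Psmf1 probe sets and 1 Psmd11 probe set in every array (log2, vertical axis) by time of sacrifice. Red symbols are sleep-deprived mice, blue symbols controls, symbol shapes give the strain, and bars are means over arrays. At ZT12 all sleep-deprived values of Psmf1 1424369_at lie below all controls, while at ZT18 the groups overlap widely.

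The promoters of these 2 genes, and of the catalytic subunits Psmb5 and Psmb6, are shown because the first pair had the largest differences and the second pair forms cutting sites of the core and did not pass the test. Psmb7, the other gene of a cutting site, did not pass either and its promoter is not shown, so the pair does not stand for all cutting sites. Each runs from 250 bases before to 50 bases after the annotated gene start, 5′ to 3′ on the gene's strand, from RefSeq on build GRCm38.p6. Capitals mark matches to 4 motifs searched on both strands. They were TGACNNNGC (the core of the antioxidant response element, bound by NFE2L1 and NFE2L2), GAANNTTC (heat shock element core), TGACGTCA (cAMP response element) and CACGTG (E-box). The locations were Psmf1 chr2:151741261-151741560 on the minus strand, Psmd11 chr11:80428365-80428664 on the plus strand, Psmb5 chr14:54617946-54618245 on the minus strand and Psmb6 chr11:70525107-70525406 on the plus strand.
Psmf1: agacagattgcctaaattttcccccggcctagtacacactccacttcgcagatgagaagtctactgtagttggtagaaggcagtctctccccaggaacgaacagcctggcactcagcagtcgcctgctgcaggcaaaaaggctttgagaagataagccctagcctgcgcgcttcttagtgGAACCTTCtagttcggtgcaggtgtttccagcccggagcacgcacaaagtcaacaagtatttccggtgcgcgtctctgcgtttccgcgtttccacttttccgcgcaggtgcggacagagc
Psmd11: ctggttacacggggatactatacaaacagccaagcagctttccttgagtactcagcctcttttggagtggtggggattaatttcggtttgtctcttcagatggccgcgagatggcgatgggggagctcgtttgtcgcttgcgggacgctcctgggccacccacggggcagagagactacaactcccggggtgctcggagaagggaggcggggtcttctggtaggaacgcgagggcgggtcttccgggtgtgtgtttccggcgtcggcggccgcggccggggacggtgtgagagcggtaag
Psmb5: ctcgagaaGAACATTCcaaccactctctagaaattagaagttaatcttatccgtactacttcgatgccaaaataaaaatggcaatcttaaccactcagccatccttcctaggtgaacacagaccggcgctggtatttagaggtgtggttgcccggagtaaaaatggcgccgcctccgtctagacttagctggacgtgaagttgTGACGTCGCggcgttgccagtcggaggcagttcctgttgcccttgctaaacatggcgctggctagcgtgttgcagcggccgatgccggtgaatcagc
Psmb6: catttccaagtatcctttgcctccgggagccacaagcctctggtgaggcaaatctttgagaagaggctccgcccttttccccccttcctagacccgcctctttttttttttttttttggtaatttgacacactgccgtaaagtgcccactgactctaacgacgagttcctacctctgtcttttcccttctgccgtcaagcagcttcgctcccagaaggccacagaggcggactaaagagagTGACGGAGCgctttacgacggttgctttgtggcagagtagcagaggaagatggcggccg
Psmf1 held a GAANNTTC match whose first base lay at -70 relative to the gene start, and Psmd11 held no match to the 4 motifs in this window. Psmb5 held both a GAANNTTC and a TGACNNNGC match, and Psmb6 a TGACNNNGC match. Promoter entries were found for 38 of the 46 genes, 41 promoters in all. TGACNNNGC was in 6 of the 41, or 14.6%, against 12.4% of 32851 mouse promoters of the same length, and the 6 genes were Psmb5, Psmb6, Psmc6, Psmd12, Psmd9 and Psme4. GAANNTTC was in 2 of 41 (4.88%, against 7.86%), CACGTG in 4 (9.76%, against 7.15%) and TGACGTCA in none (against 1.79%). A match is a stretch of letters and says nothing about binding.

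In the core particle, none of the 12 beta-ring probe sets passed the test by limma, where 17.3% of all probe sets were called. None had an unadjusted p under 0.05, a cut-off at which all probe sets were not counted. The counts by role here and below are small and were not matched for level. They are not read as results about a role. Psmb5, the chymotrypsin-like site, ran from 10.44 to 10.75 with a median of 10.56 in sleep-deprived arrays and from 10.45 to 10.69 with a median of 10.53 in controls. Its difference was 0.02, with an interval of -0.01 to 0.05 (adjusted p = 0.409). Psmb6, the caspase-like site, differed by -0.01, with an interval of -0.05 to 0.03 (adjusted p = 0.862). Psmb7, the trypsin-like site, differed by -0.02, with an interval of -0.05 to 0.02 (adjusted p = 0.633). Of the 18 alpha-ring probe sets 1 fell, that of Psma7, a subunit of the gate ring. Psma7 1423567_a_at ran from 9.81 to 10.17 in sleep-deprived arrays and from 9.78 to 10.25 in controls, so the groups overlapped almost fully. It fell by 0.06 ± 0.02 (adjusted p = 0.00343), and the second Psma7 probe set, 1423568_at, had a difference of -0.05 ± 0.02 (adjusted p = 0.0863). None of the 8 probe sets of the core chaperones Psmg1 to Psmg4 passed the test or had an unadjusted p under 0.05.

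The base ATPases, which pull the substrate into the core, gave 2 rises and 1 fall among 12 probe sets. Of all probe sets 8.31% were higher and 9.00% lower. The probe sets of Psmc6 went opposite ways. Psmc6 1417770_s_at ran from 8.87 to 9.29 with a median of 9.05 in sleep-deprived arrays and from 8.91 to 9.45 with a median of 9.15 in controls. It fell by 0.11 ± 0.02 (adjusted p = 3.41e-04), with 10 of 12 differences below 0. The brightest Psmc6 probe set, 1417771_a_at, rose by 0.04 ± 0.01 (adjusted p = 0.0481), and 1417769_at had a difference of -0.10 ± 0.04 (adjusted p = 0.0971). The call of 1417771_a_at was lost when any of 44 of the 71 arrays was left out, with adjusted p up to 0.0783. No direction is therefore given for the gene.

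Psmc4 1416291_at, another ATPase, ran from 9.47 to 9.75 with a median of 9.62 in sleep-deprived arrays and from 9.31 to 9.72 with a median of 9.57 in controls. It rose by 0.06 ± 0.02 (adjusted p = 0.0171; 0.0502 after quantile normalization, where it was not called), and the brighter Psmc4 probe set, 1416290_a_at, had a difference of 0.03 ± 0.03 (adjusted p = 0.575). Of the other base subunits, Psmd1, a scaffold of the base, fell by 0.05 ± 0.01 (adjusted p = 0.00864) with 9 of 12 differences below 0. The 3 probe sets of Psmd4, a receptor for ubiquitin chains, had differences of 0.00, 0.01 and -0.01 (adjusted p of 0.989, 0.808 and 0.854).

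In the lid, 3 of 21 probe sets rose and none fell, where 8.31% of all probe sets were higher and 9.00% lower. Beside Psmd11 these were Psmd12 and Psmd13, both structural subunits of the lid. Psmd12 ran from 9.44 to 9.75 with a median of 9.63 in sleep-deprived arrays and from 9.35 to 9.74 with a median of 9.58 in controls, and it rose by 0.05 ± 0.02 (adjusted p = 0.0150) with 11 of 12 differences above 0. Psmd13 1445729_at rose by 0.08 ± 0.03 (adjusted p = 0.0497). That call was lost when any of 50 of the 71 arrays was left out, with adjusted p up to 0.109, and the brightest Psmd13 probe set, 1422459_a_at, had a difference of -0.01 ± 0.02 (adjusted p = 0.869). The cap chaperones gave 2 rises among 5 probe sets, against 8.31% of all probe sets, a count too small to read. Psmd5 ran from 8.28 to 8.59 with a median of 8.48 in sleep-deprived arrays and from 8.15 to 8.55 with a median of 8.41 in controls. It rose by 0.08 ± 0.02 (adjusted p = 4.14e-04), with 10 of 12 differences above 0. Psmd10, also known as gankyrin, rose by 0.06 ± 0.02 (adjusted p = 0.0206), again with 10 of 12 differences above 0.

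Among the activators, which open the core without ATP, 1 probe set fell, where 9.00% of all probe sets were lower. Psme1, the alpha subunit of the activator known for its response to interferon, ran from 8.85 to 9.16 with a median of 8.98 in sleep-deprived arrays and from 8.89 to 9.32 with a median of 9.03 in controls. It fell by 0.07 ± 0.02 (adjusted p = 0.00463), with 8 of 12 differences below 0. None of the 3 probe sets of Psme3 and none of the 6 of Psme4 was called.

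**Figure D3:**
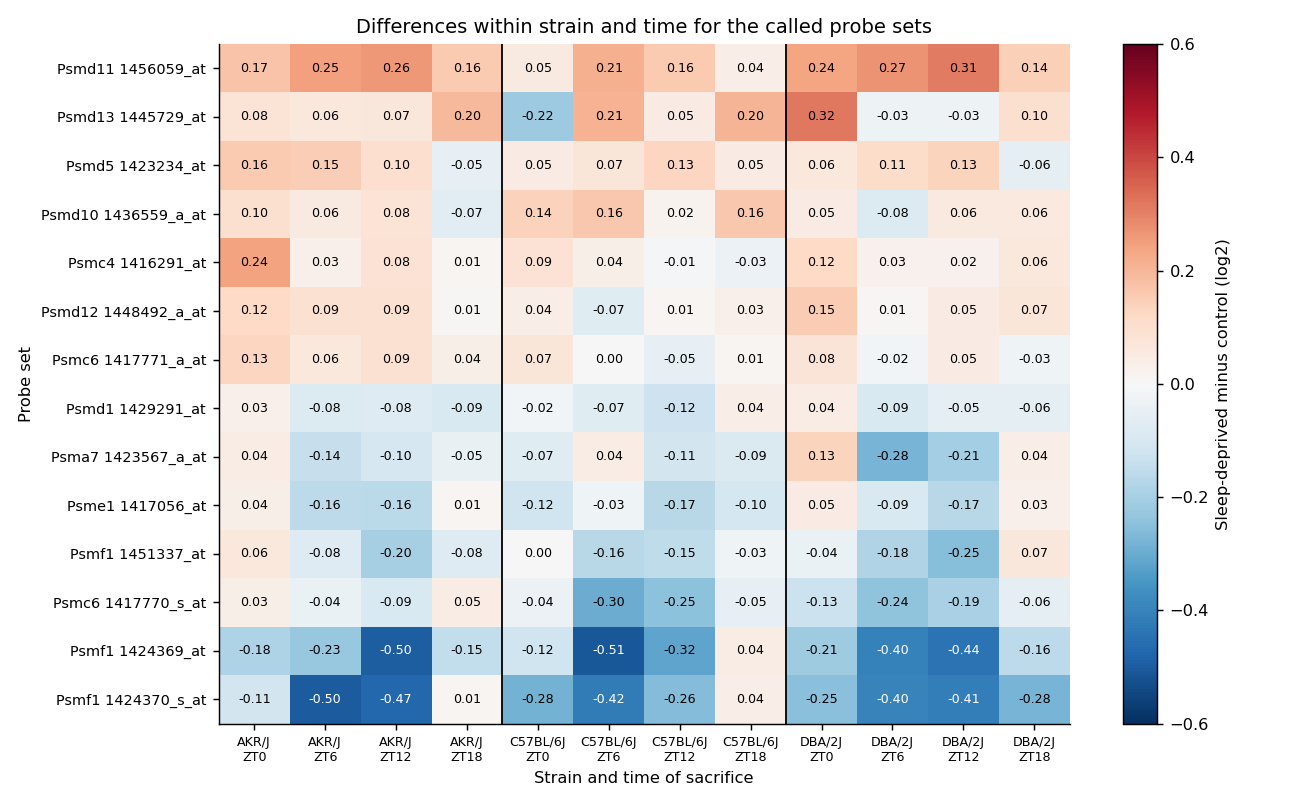
Difference between sleep-deprived mice and controls (log2, colour and printed value) for the 14 called probe sets in each of the 12 combinations of strain and time of sacrifice. Red is higher and blue lower in sleep-deprived mice. The Psmd11 row at the top is above 0 in all 12 columns, and the 2 Psmf1 probe sets at the bottom reach their lowest value in each strain at ZT6 or ZT12.

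A list of proteasome partners and regulators outside the member genes was read for comparison; 23 of its genes were measured, on the brightest probe set each. Of these 3 rose and 3 fell, with a median difference of 0.02, where 8.31% of all probe sets were higher and 9.00% lower. The share among the brightest probe sets of all genes is not given here, so the counts are not read as a result about the list. Uba6, an enzyme that activates ubiquitin, rose by 0.13 ± 0.03 (adjusted p = 1.41e-04), Nfe2l2, a stress-responsive transcription factor, by 0.12 ± 0.03 (adjusted p = 5.40e-04), and Sem1, a small lid subunit, by 0.06 ± 0.02 (adjusted p = 0.0355). Ufd1, a cofactor of the segregase Vcp, fell by 0.11 ± 0.02 (adjusted p = 4.48e-06), Zfand5, a proteasome-binding zinc finger protein, by 0.06 ± 0.02 (adjusted p = 0.00416), and Ube4b, a ubiquitin ligase, by 0.08 ± 0.03 (adjusted p = 0.0378). Nfe2l1, the transcription factor known to induce proteasome genes, had a difference of 0.03 ± 0.03 (adjusted p = 0.613), and the core maturation protein Pomp one of 0.03 ± 0.02 (adjusted p = 0.195). None of the 3 immunoproteasome genes passed the test by limma or had an unadjusted p under 0.05, with adjusted p of 0.205 for Psmb8, 0.469 for Psmb9 and 0.216 for Psmb10.

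Within strains, fewer probe sets were called. In AKR/J 3 member probe sets rose and 2 fell, where 5.85% of all probe sets were called (3.40% higher and 2.45% lower). In C57BL/6J 2 rose and 4 fell (6.45% of all, 3.27% higher and 3.18% lower), and in DBA/2J 1 rose and 3 fell (6.90% of all, 3.27% higher and 3.63% lower). Psmf1 1424369_at fell in each strain, with differences of -0.30 ± 0.05 for DBA/2J (adjusted p = 2.22e-05), -0.26 ± 0.05 for AKR/J (adjusted p = 4.97e-04) and -0.23 ± 0.05 for C57BL/6J (adjusted p = 0.00214). Psmd11 1456059_at rose by 0.24 ± 0.04 in DBA/2J (adjusted p = 1.60e-05) and by 0.21 ± 0.04 in AKR/J (adjusted p = 3.73e-04), and its difference in C57BL/6J was 0.12 (adjusted p = 0.0680). Psmc6 1417770_s_at fell by 0.16 ± 0.04 in both DBA/2J (adjusted p = 0.00746) and C57BL/6J (adjusted p = 0.00762), and its difference in AKR/J was -0.01. The brightest Psmc6 probe set, 1417771_a_at, rose by 0.08 in AKR/J (adjusted p = 0.0292). Its differences were 0.01 in C57BL/6J and 0.02 in DBA/2J. With only the AKR/J groups in the fit that rise was not called (adjusted p = 0.116).

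Whether the effect of sleep deprivation differed between strains was tested itself. None of the 99 probe sets was called in that limma F test, where 0.0222% of all probe sets were. An unadjusted p under 0.05 was found for 5 of the 99. The share of all probe sets at that cut-off was not counted, so the 5 are not read as a result. The smallest adjusted p was 0.621, for Psmc6 1417770_s_at, so a call in 1 strain and not in another does not show a difference between strains. Without the 6 arrays of low spike-in signal, 2 probe sets were called in C57BL/6J in place of 6. The differences in C57BL/6J were then 0.10 in place of 0.12 for Psmd10 (adjusted p = 0.130), 0.13 in place of 0.12 for Psmb4 1438984_x_at (adjusted p = 0.0928), -0.11 in place of -0.16 for Psmc6 1417770_s_at (adjusted p = 0.174) and -0.09 in place of -0.10 for Psme1 (adjusted p = 0.180). In AKR/J the rise of Psmd7 1451056_at was no longer called either, with a difference of 0.08 in place of 0.13 (adjusted p = 0.140). The fits without the 6 arrays hold fewer arrays, and a lost call does not tie a difference to them. With every array kept and the low spike-in arrays as a term, Psmd7 1451056_at in AKR/J gave 0.08 (adjusted p = 0.0750). In C57BL/6J that fit gave -0.08 for Psme1 (adjusted p = 0.104) and 0.11 for Psmb4 1438984_x_at (adjusted p = 0.0688). Psmd10 and Psmc6 1417770_s_at stayed called there. Why calls were lost was not tested.

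By time of sacrifice, most calls were at ZT6 and ZT12. At ZT0 1 member rose, where 1.71% of all probe sets were called (1.26% higher and 0.453% lower). At ZT6 2 rose and 8 fell (10.4% of all, 5.13% higher and 5.29% lower), and at ZT12 2 rose and 8 fell (9.75% of all, 4.71% higher and 5.04% lower). At ZT18 none was called (0.0777% of all, 0.0600% higher and 0.0178% lower). At ZT18 the smallest adjusted p in limma was 0.632. There 5 members had an unadjusted p under 0.05, a cut-off at which all probe sets were not counted. The ZT0 rise was that of Psmc4 1416291_at, by 0.15 ± 0.03 (adjusted p = 0.0105). It ran from 9.59 to 9.73 in 9 sleep-deprived arrays and from 9.31 to 9.58 in 9 controls, with no overlap. Without the 6 arrays of low spike-in signal the difference was 0.12 (adjusted p = 0.0742), and no member was called at ZT0. With only the ZT0 groups in the fit it was 0.15 and not called (adjusted p = 0.159).

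Psmf1 1424369_at had the smallest p among the members for a change of the difference with time. At ZT0 it ran from 5.90 to 6.25 with a median of 6.10 in 9 sleep-deprived arrays and from 6.05 to 6.43 with a median of 6.23 in 9 controls. At ZT6 the ranges were 5.98 to 6.40 with a median of 6.19 in sleep-deprived mice and 6.38 to 6.76 with a median of 6.54 in controls. At ZT12 they were 5.89 to 6.27 with a median of 6.12 in sleep-deprived mice and 6.28 to 6.68 with a median of 6.55 in controls, and at ZT18 5.82 to 6.34 with a median of 6.04 in 8 sleep-deprived arrays and 5.97 to 6.34 with a median of 6.10 in 9 controls. The groups were apart at ZT12, overlapped only at their edges at ZT6 and overlapped more at ZT0 and ZT18.

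The differences of Psmf1 1424369_at were -0.17 at ZT0, -0.38 ± 0.06 at ZT6 (adjusted p = 2.74e-06), -0.42 ± 0.06 at ZT12 (adjusted p = 3.78e-07) and -0.09 at ZT18. Time by sleep deprivation, the F test of whether the difference changed with time, called this probe set alone among the 99 (adjusted p = 0.0329), where 1.40% of all probe sets were called. The call was lost when any of 14 of the 71 arrays was left out, with adjusted p up to 0.0644. An unadjusted p under 0.05 in this F test was found for 15 members. The share of all probe sets at that cut-off was not counted, so the 15 are not read as a result. Psmf1 1424370_s_at gave -0.21, -0.44, -0.38 and -0.08 in the order of the 4 times, and 1451337_at gave 0.01, -0.14, -0.20 and -0.01 (adjusted p of the F test 0.196 and 0.119).

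Other members called at both ZT6 and ZT12 were Psmd11 1456059_at (0.24 at both), Psmd5 (0.11 and 0.12), Psmc6 1417770_s_at (-0.19 and -0.18), Psma7 1423567_a_at (-0.12 and -0.14) and Psmd1 (-0.08 and -0.09). At ZT12 Psme1 also fell, by 0.16 ± 0.04 (adjusted p = 0.00181). At ZT6 Psmd9 1423386_at, a cap chaperone, fell by 0.16 ± 0.05 (adjusted p = 0.0298) and Psmd11 1440253_at by 0.12 ± 0.04 (adjusted p = 0.0258), opposite to the rise of Psmd11 1456059_at. The dimmer Psmd9 probe sets had differences at ZT6 of 0.07 for 1423387_at and -0.07 for 1447670_at, neither of them called. Of 8 oligodendrocyte markers, 3 were lower at ZT6 and 4 at ZT12, where 5.29% and 5.04% of all probe sets were lower. Their part was not tested, and other cell types are not set beside these calls. Without the 6 arrays of low spike-in signal, 6 members were called at ZT6 in place of 10. Those no longer called had differences there of -0.11 for Psma7 1423567_a_at (adjusted p = 0.0803), -0.08 for Psmd1 (adjusted p = 0.111), -0.16 for Psmd9 1423386_at (adjusted p = 0.0631) and -0.09 for Psmd11 1440253_at (adjusted p = 0.181). With only the groups of one time in the fit, which leaves fewer arrays to estimate the spread, the differences stayed the same and Psmd5 was not called at ZT6 (adjusted p = 0.0932) or ZT12 (adjusted p = 0.0626). Neither was Psmc6 1417770_s_at at ZT12 (adjusted p = 0.0735), Psma7 1423567_a_at at ZT6 (adjusted p = 0.0531) or Psmd1 at ZT6 (adjusted p = 0.174) and ZT12 (adjusted p = 0.152). Also not called there at ZT6 were Psmd9 1423386_at (adjusted p = 0.0714), Psmd11 1440253_at (adjusted p = 0.0942) and Psmf1 1451337_at (adjusted p = 0.0726). At ZT12 the second Psma7 probe set, 1423568_at, was not called either (adjusted p = 0.0527).

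In undisturbed controls, 16 of the 99 probe sets differed with time of day by F test, where 11.7% of all probe sets were called. Over the means at ZT0, ZT6, ZT12 and ZT18, Psmf1 1424369_at had 6.26, 6.56, 6.51 and 6.12 (adjusted p = 4.82e-08), so it was high in the middle and at the end of the light phase and low in the middle of the dark. Psmf1 1424370_s_at had 6.83, 7.19, 7.07 and 6.63 (adjusted p = 3.13e-07), a range of 0.56. Psmd11 1456059_at ran the other way, with 9.82, 9.62, 9.75 and 9.95 (adjusted p = 3.46e-06).

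Among the 16, the probe sets highest at ZT6 or ZT12 were 3 of Psmf1, 2 of Psma7, and 1 each of Psmc6, Psme1, Psmd1, Psma1 and Psmd4. Those highest at ZT18 were 1 each of Psmd11, Psmd5, Psmc6, Psmd7, Psmd12 and Psmc4. Psma7 1423567_a_at had 9.98, 10.09, 10.16 and 10.02 (adjusted p = 2.84e-04) and Psmc6 1417770_s_at had 9.08, 9.27, 9.28 and 9.06 (adjusted p = 6.91e-05). Psmd5 had 8.40, 8.33, 8.35 and 8.50 (adjusted p = 5.25e-04). No beta-ring probe set and no probe set of a core chaperone was called. Of 8 oligodendrocyte markers 5 also differed with time of day in controls, against 11.7% of all probe sets, and their part in these profiles was not tested. Other cell types are not set beside these profiles, and the shares were not matched for level. Without control array AKR/J ZT0 replicate 3, 10 members were called in place of 16.

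In sleep-deprived mice the same F test called none of the 99 members, where 1.42% of all probe sets were called. An unadjusted p under 0.05 was found for 14 members, and the share of all probe sets at that cut-off was not counted. The smallest adjusted p was 0.0842, for Psmd11 1456059_at, with means of 9.97, 9.87, 9.99 and 10.06. Psmf1 1424369_at had 6.09, 6.18, 6.09 and 6.04 (adjusted p = 0.592), Psma7 1423567_a_at 10.02, 9.97, 10.02 and 9.99 (adjusted p = 0.775), and Psmd5 8.49, 8.44, 8.47 and 8.48 (adjusted p = 0.835). The range over the 4 times was 0.14 in sleep-deprived mice and 0.44 in controls for Psmf1 1424369_at, the only member for which the time by sleep deprivation test passed. The comparisons by time of sacrifice and the profiles in controls use the same control arrays, so they are not separate evidence.

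**Figure D4:**
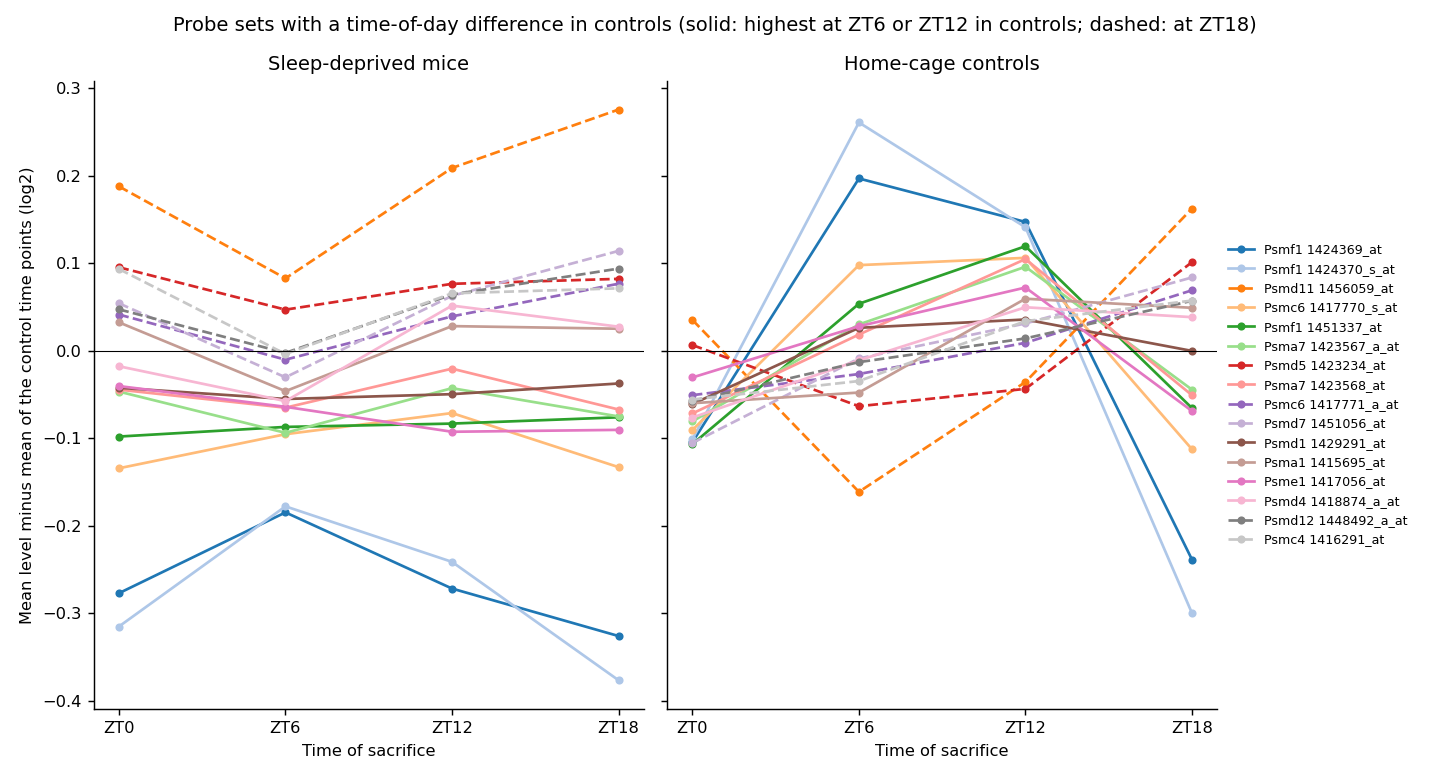
Mean level by time of sacrifice for the 16 probe sets called for time of day in controls, as a difference from each probe set's own mean over the 4 control times (log2, vertical axis). Sleep-deprived mice are in the left panel and controls in the right, solid lines mark probe sets highest at ZT6 or ZT12 in controls and dashed lines those highest at ZT18. Psmf1 1424370_s_at spans 0.20 in the left panel and 0.56 in the right.

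Between strains, the largest differences in controls exceeded the largest mean difference under sleep deprivation. They were read as the mean over the 4 times, and the 3 pairwise comparisons share strains. In C57BL/6J against AKR/J 6 member probe sets were higher and 17 lower (22.9% of all probe sets were called, 9.74% higher and 13.1% lower), in DBA/2J against AKR/J 1 was higher and 16 lower (17.3% of all, 9.01% higher and 8.30% lower), and in DBA/2J against C57BL/6J 14 were higher and 12 lower (23.2% of all, 13.6% higher and 9.55% lower). A strain difference at a probe set can come from RNA level or from a sequence difference under the probes, and the 2 cannot be told apart here.

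Psmb6, the caspase-like subunit of the core, had the largest strain difference, on its single probe set. It ran from 9.52 to 9.85 with a median of 9.69 in 12 DBA/2J controls, against 10.43 to 10.67 with a median of 10.47 in 12 AKR/J controls. In C57BL/6J controls it ran from 10.39 to 10.67 with a median of 10.49, so DBA/2J did not overlap either strain. The difference was -0.80 ± 0.04 against AKR/J (adjusted p = 3.76e-27) and -0.81 ± 0.04 against C57BL/6J (adjusted p = 1.88e-27), which is -42.6% and -43.0% on the linear scale. Sleep-deprived DBA/2J arrays ran from 9.49 to 9.82, like their controls.

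Psmb2, another beta-ring subunit, ran from 8.53 to 8.99 with a median of 8.73 in DBA/2J controls, against 8.71 to 9.41 with a median of 9.09 in AKR/J controls and 8.61 to 9.24 with a median of 9.10 in C57BL/6J controls. The ranges overlapped at their edges. The difference of DBA/2J was -0.36 ± 0.07 against AKR/J (adjusted p = 1.23e-05) and -0.34 ± 0.07 against C57BL/6J (adjusted p = 2.70e-05). Psme4, a large activator known from DNA repair and spermatogenesis, was lower in DBA/2J on its 3 brightest probe sets, with differences from AKR/J of -0.28 for 1452211_at (adjusted p = 7.02e-08), -0.20 for 1426824_at and -0.18 for 1426823_s_at. The dim Psme4 probe set 1445147_at followed another order, with a difference of -0.40 in C57BL/6J against AKR/J and 0.36 in DBA/2J against C57BL/6J.

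Probe sets of 2 chaperones differed most in C57BL/6J. Psmd9 1423386_at ran from 7.10 to 7.55 with a median of 7.37 in C57BL/6J controls and from 6.77 to 7.19 with a median of 6.98 in AKR/J controls. The difference was 0.37 ± 0.04 (adjusted p = 7.16e-10), and the dim probe set 1447670_at gave 0.54 ± 0.07 (adjusted p = 5.69e-09), while 1423387_at gave 0.05 (adjusted p = 0.512). Psmg4 1435431_at, of a core chaperone, ran from 7.22 to 7.61 with a median of 7.37 in C57BL/6J controls and from 7.58 to 8.06 with a median of 7.72 in AKR/J controls. It was lower in C57BL/6J, with a difference of -0.37 ± 0.05 (adjusted p = 2.41e-09), and higher in DBA/2J than in C57BL/6J by 0.36 ± 0.05 (adjusted p = 2.79e-09).

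Psmd11 1440253_at, which had fallen at ZT6 and was not called for the mean effect of sleep deprivation, differed between strains. It ran from 9.39 to 9.83 with a median of 9.69 in C57BL/6J controls and from 9.98 to 10.15 with a median of 10.09 in AKR/J controls, with no overlap. The difference from AKR/J was -0.41 ± 0.03 for C57BL/6J (adjusted p = 2.18e-16). For DBA/2J it was -0.39 ± 0.03 (adjusted p = 1.89e-15). Psmd11 1456059_at gave -0.07 and -0.02 (adjusted p of 0.215 and 0.772). The probe sets of Psmc2, an ATPase, disagreed between strains. The bright probe sets 1426611_at and 1435859_x_at had differences of -0.20 and -0.21 in C57BL/6J against AKR/J (adjusted p of 1.23e-06 and 3.15e-08), while the dim 1443307_at had 0.21 there and 0.45 in DBA/2J against AKR/J (adjusted p of 7.22e-04 and 2.19e-11).

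Smaller strain differences were found in other subunits. In C57BL/6J against AKR/J, the alpha-ring gene Psma4 gave -0.17 ± 0.03 (adjusted p = 4.65e-07), Psmd1 gave -0.12 ± 0.02 (adjusted p = 3.71e-05) and the trypsin-like subunit Psmb7 gave -0.15 ± 0.03 (adjusted p = 1.29e-04). In DBA/2J against AKR/J, Psmd6 1423696_a_at of the lid gave -0.23 ± 0.05 (adjusted p = 2.95e-04). The brighter Psmd6 probe set, 1423697_at, did not follow it, with r = -0.46 between group means. No direction is therefore given for the gene. Oligodendrocyte markers differed as well, with 7 of 8 higher in C57BL/6J than in AKR/J, against 9.74% of all probe sets. In DBA/2J 7 of 8 were lower than in C57BL/6J, against 9.55% of all, and their part was not tested. Other cell types are not set beside these strain differences, and the shares were not matched for level.

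**Figure D5:**
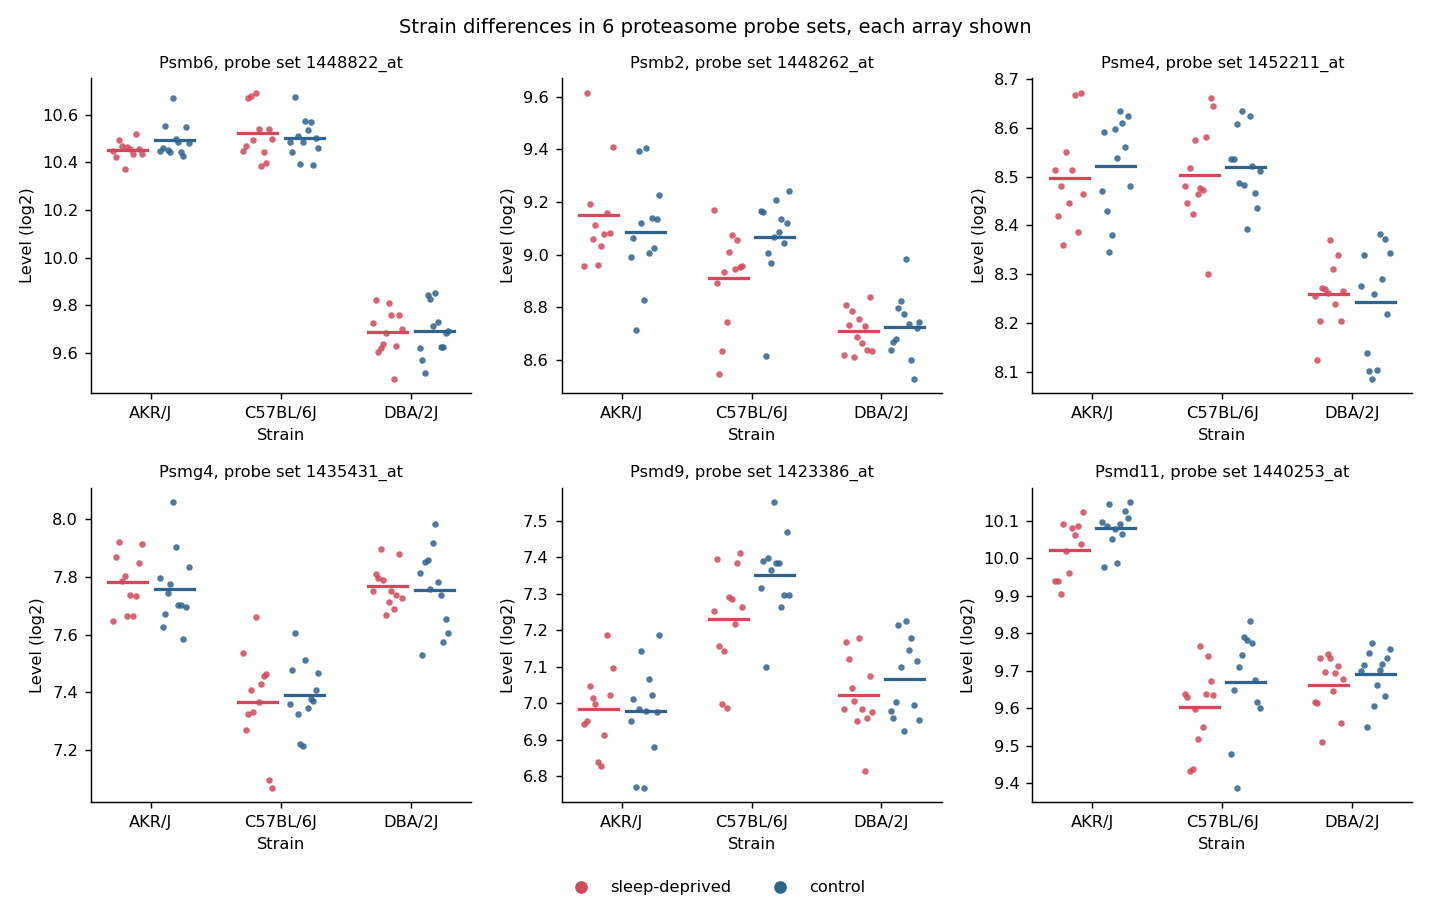
Level of 6 probe sets in every array (log2, vertical axis) by strain, with sleep-deprived arrays in red at the left of each strain and controls in blue at the right, and bars at the means. Psmb6 reaches at most 9.85 in DBA/2J arrays and at least 10.37 in the others, and the means of Psmd9 and Psmg4 set C57BL/6J apart from the other strains.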

How the data were processed

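The deposited log2 values were made by the authors with RMA, which corrects background, normalizes and summarises the probes of each probe set; per the submitters' processing notes the tool was RMA, with its version not stated. They were used as deposited, without further normalization. Of 45101 probe sets, 64 platform controls were left out, and 34945 of the rest had 1 gene symbol in the platform annotation.

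A model with 1 mean per group (24 groups, 47 residual degrees of freedom) was fitted to all 45037 probe sets with limma 3.58.1 (R 4.3.3), and contrasts were tested with eBayes. All adjusted p-values are limma's with Benjamini-Hochberg adjustment over 45037 probe sets, and a call is an adjusted p under 0.05. How precise a value is depends on how many arrays stand behind it. The script was tested on simulated data. Other steps used Python 3.11.15, pandas 2.3.3 and matplotlib 3.10.9.

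The members and lists were chosen with earlier results of these data known. Single results followed through the alternatives were picked by a rule. It took up to 8 called rises and 8 called falls per comparison of 2 conditions or strains. It took up to 6 calls per F test, and Psmb5, Psmb6, Psmb7 and Psmd4 for the mean effect. The text names some of these results and leaves out others. For genes whose probe sets disagreed it gives further probe sets, though not every one. Partner genes named were up to 6 called ones and the uncalled Nfe2l1 and Pomp. The brightest probe set represents a gene. Alternatives were quantile normalization, median centring, a level filter, array weights, eBayes with trend and robust options, 1 probe set per gene, only the compared groups in the fit, the spike-in batch as a block or left out, the replicate number as a block, each array left out, and, chosen after seeing the data, pituitary signal as a covariate.

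Replicate numbers were checked for pairing: the mean residual correlation was 0.0084 between arrays of the same number and -0.0042 between others, and 36 of 71 arrays correlated best with their own number, so the numbers were not taken to pair the samples.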

Additional observations from a re-analysis of the deposited data

Results flagged for a closer look

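Psmf1 1424369_at stood out because its difference between sleep-deprived mice and controls changed with the time of sacrifice in a test of that change itself, the limma F test of time by sleep deprivation (adjusted p = 0.0329). The differences were -0.17 at ZT0, -0.38 at ZT6, -0.42 at ZT12 and -0.09 at ZT18.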

How the results depend on the processing

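Counts of called members moved by more than 1.5 times under these settings, and the cause was not tested unless the setting itself removes probe sets or arrays. With 1 probe set per gene, which leaves 46 members, the mean effect gave 8 calls, AKR/J 3, C57BL/6J 2, DBA/2J 0, ZT0 3, ZT6 5, ZT12 5, time of day in controls 10, C57BL/6J minus AKR/J 12, DBA/2J minus AKR/J 9 and DBA/2J minus C57BL/6J 15. When the fit held only the groups compared, AKR/J gave 3, C57BL/6J 3, ZT0 0, ZT6 4, ZT12 6, time of day in controls 9 and DBA/2J minus AKR/J 11. Without the 6 arrays of low spike-in signal, C57BL/6J gave 2, ZT0 0 and ZT6 6, and with that batch as a term ZT0 gave 3 and time by sleep deprivation 2. Array weights gave 11 for C57BL/6J, 5 for ZT0, 5 for time by sleep deprivation and 7 for time of day in sleep-deprived mice. Above the median level AKR/J gave 8, ZT0 5, time of day in sleep-deprived mice 2 and time by sleep deprivation 2. Trend and robust options gave 5 for ZT0, 2 for time by sleep deprivation and 1 for time of day in sleep-deprived mice, median centring gave 4 for ZT0, and quantile normalization 3 for AKR/J. With the replicate number as a block, where the check did not decide on pairing, ZT0 gave 2. The mean effect then gave 12 in place of 14, a smaller shift. Leaving out 1 array at a time gave 12 to 15 for the mean effect, 3 to 7 for AKR/J, 4 to 7 for C57BL/6J, 4 to 5 for DBA/2J, 1 to 5 for ZT0, 6 to 10 for ZT6, 8 to 11 for ZT12 and 0 to 0 for ZT18. It gave 0 to 0 for strain by sleep deprivation, 0 to 2 for time by sleep deprivation, 10 to 18 for time of day in controls, 0 to 1 for time of day in sleep-deprived mice, and 20 to 24, 12 to 19 and 24 to 27 for the strain pairs in the order above. ZT6 fell to 6 without AKR/J control ZT6 replicate 1, C57BL/6J control ZT6 replicate 3 or C57BL/6J sleep-deprived ZT6 replicate 1, and AKR/J to 3 without AKR/J control ZT6 or ZT12 replicate 3, sleep-deprived ZT0 replicate 2 or ZT12 replicate 3. The ZT0 count changed without any of 13 arrays. Of 102 single named results, none that was called changed sign, and the ranges given for F tests have no sign to change. Psmb6 and Psmd4 1418874_a_at, not called for the mean effect, took either sign between settings. Their differences ran from -0.0108 to 0.0050 and from -0.0057 to 0.0030. Calls were lost: 17 of 81 with only the compared groups fitted, 12 of 102 without the spike-in arrays and 5 of 102 under quantile normalization. The 102 results, and the 7242 below, include the mean effects of Psmb5, Psmb6, Psmb7 and the Psmd4 probe sets. These were not called and could not lose a call, so the shares lost among calls are higher. The 81 hold no such result. Further losses were 3 each with that batch as a term and with the pituitary covariate, and 2 under the replicate block. Median centring, trend and robust options, and array weights lost 1 each, and leaving out 1 array lost 216 of 7242.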
